A study of Homo sapiens with 16 samples.

Results

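High doses of the compounds T4 and T5 were compared with low doses in U2OS cells, an established human osteosarcoma line. The high side held the 4 libraries at 10 and 20 µM and the low side the 4 libraries at 0.5 and 2 µM, which made 8 of the 16 libraries of the series. The groups were T4 at 0.5 µM, T4 at 2 µM, T4 at 10 µM, T4 at 20 µM and T5 at the same doses, each given for 6 h to otherwise untreated cells and each represented by 1 library. A single DMSO library, the solvent control, served only to show on which side of untreated cells a level lay. The 5 µM libraries and the CPT libraries were kept out of this comparison and used separately.

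The series calls T4 and T5 modulators of alternative polyadenylation, and the labels give no structure for either and do not spell out CPT. Most human genes carry more than 1 site at which the nascent RNA can be cut and given a poly(A) tail. The complex that cuts it recognises a signal upstream of the cut through the cleavage and polyadenylation specificity factor, binds downstream sequence through the cleavage stimulation factor, and is helped by cleavage factors I and II and a poly(A) polymerase. The values here are totals per gene, so they show how much RNA of a gene was present and not where that RNA ended.

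Levels are FPKM, fragments mapped to a gene, scaled by its transcript length and by the size of the library, and every difference below is a difference of mean log2(FPKM + 1) between the 4 high and the 4 low libraries unless another is named. Errors after ± are standard errors of a limma fit over the 8 libraries with the compound as a block. Because the libraries of a side differ in dose, the error includes whatever changed between 0.5 and 2 µM and between 10 and 20 µM. Separate cultures are not stated for these libraries, so the p-values measure only the scatter of these libraries, which may be technical.

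FPKM summed to between 240588 and 259944 in the low and between 249266 and 278940 in the high libraries. The depth of a library relative to DMSO, read from the steps of low values, was 0.818 to 0.997 on the low and 0.758 to 0.835 on the high side. The median log2(FPKM + 1) over tested genes was 2.85 to 3.23 on the low side and 2.65 to 2.73 on the high side. Of 10 bone markers 6 reached a mean FPKM of 1. COL1A1 was at 474 and SPARC at 327, but RUNX2, ALPL, BMP2 and SPP1 only at 1.39, 1.73, 2.17 and 3.13. IBSP, BGLAP, COL1A2 and SP7 were near 0. Of 8 epithelial markers 3 reached a mean FPKM of 1, with CLDN4 highest at 11.1 and GRHL2 at 0 in every library. Of 9 blood cell markers only CD68 did, with HBB at 0. The summed blood cell markers were 1.92 to 2.63 at low and 3.20 to 3.73 at high doses, the epithelial ones 10.0 to 20.6 and 11.5 to 17.9, and the bone ones 590 to 770 and 849 to 947. The part of these shifts and of depth in the results was not tested.

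Genes whose FPKM averaged 1 or more over all 16 libraries were tested, 10600 in number. Of these 3054 were higher (28.8%) and 3889 lower (36.7%) at high doses, so that 6943 were called (65.5%) and 3657 were not (limma, Benjamini-Hochberg adjusted p under 0.05). Without adjustment 3271 and 4091 passed 0.05. The genes just inside the filter, DNAJC16 and MLC1, had a mean FPKM of 1.0003 each, and those just outside, AGAP6 and CHRM4, had 0.9988 and 0.9991. The falls were larger than the rises. Among called genes the median difference was 0.43 for the higher and -0.86 for the lower ones, against -0.06 over all tested genes. A difference of at least 1 was reached by 60 higher and 1543 lower genes, and of at least 2 by 10 and 98. In 2881 genes (27.2%) all 4 high libraries lay above all 4 low ones, and in 3425 (32.3%) all lay below.

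FPKM is a share of each library, so the balance of rises and falls depends on the scale. Centring each library on its median shifted the genes up by 0.35, and then 5260 were higher (49.6%) and 2647 lower (25%). The median difference over tested genes went from -0.06 to 0.29, so this centring moved the typical gene up and is not a neutral scale. Quantile normalization gave 4275 higher (40.3%) and 3186 lower (30.1%), with a median difference of 0.09. All 3054 higher genes stayed called higher with median centring and 2789 of them with quantile normalization, and of the lower genes 2647 and 3027 stayed called lower. When each library was left out in turn, 2452 of the higher and 3313 of the lower genes were called in all 8 fits. In bulk RNA, fewer cells of a type and less RNA per cell cannot be told apart.

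**Figure D1:**
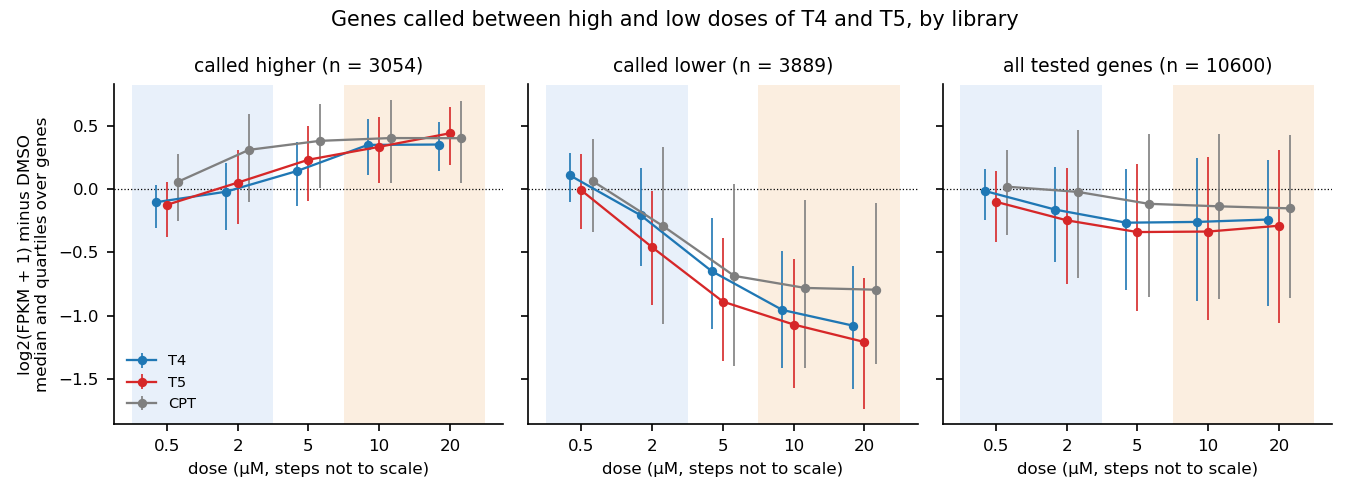
Median log2(FPKM + 1) minus DMSO over the called higher genes, the called lower genes and all tested genes (y axis) at each dose in µM (x axis, not to scale), with bars from the lower to the upper quartile over genes, not error bars over replicates. Blue bands mark the low and orange bands the high doses, and with T5 the called lower genes went from a median of -0.01 at 0.5 µM to -1.21 at 20 µM.

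In the lower genes most of the change lay between 0.5 and 10 µM, which follows in part from calling them between the sides. Their median ratio to DMSO, in log2 units, was 0.11 at 0.5 µM T4, -0.21 at 2 µM, -0.65 at 5 µM, -0.96 at 10 µM and -1.08 at 20 µM. With T5 the same genes stood at -0.01, -0.46, -0.89, -1.07 and -1.21. For the higher genes the medians with T4 were -0.11, -0.02, 0.14, 0.35 and 0.35, and with T5 -0.13, 0.05, 0.23, 0.33 and 0.44. Within the low side, 81.7% of the lower genes fell between 0.5 and 2 µM T4 and 91.1% between 0.5 and 2 µM T5, against 63.9% and 61.8% of all tested genes. Within the high side 69.9% and 70.3% of them were lower at 20 than at 10 µM, against 54% and 39.9% of all tested genes. The higher genes went on rising between 10 and 20 µM in 86.9% of cases with T5 and in 52.1% with T4, against 59.7% and 45.6% of all tested genes. These steps are ratios of single libraries with no replicate check.

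The 5 µM libraries, which took no part in the fit, mostly fell between the sides. The genes were called because their sides differed, so a middle dose between them was likely beforehand. The counts are given as a description, and no such share was computed over all tested genes. For T4, 2761 of the 3054 higher genes (90.4%) and 3418 of the 3889 lower genes (87.9%) had their 5 µM value between the low and the high mean of T4, and for T5 the counts were 2666 (87.3%) and 3240 (83.3%). The 5 µM value had covered a median fraction of 0.502 of the way from the low to the high mean for higher genes with T4 and 0.621 with T5, and of 0.657 and 0.739 for lower genes.

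Among the genes with large rises were immediate early transcription factors, which cells switch on without new protein synthesis, and chemokines, secreted proteins that attract leukocytes. The 15 rises and 15 falls named here were the largest among called genes whose sides did not overlap, with small RNAs, pseudogenes and genes without a common symbol passed over, so their separation and their calls are given as a description. Of the 23 called genes that rose at least as much as the smallest of the 15, 8 were left out by these conditions. FOS, which pairs with JUN proteins to form the transcription factor AP-1, had an FPKM of 1.13 in DMSO, 3.88 and 24.96 at 0.5 and 2 µM T4, 113 and 154 at 10 and 20 µM T4, 9.41 and 50.4 at the low and 205 and 254 at the high doses of T5. The groups did not overlap, and the level grew with every dose of either compound. The difference was 3.43 ± 0.61 (adjusted p = 0.00227, limma), the largest rise among the named genes. EGR1, a zinc finger factor, stood at 13.8 in DMSO, at 17.0 and 74.0 with low and 271 and 332 with high T4, and at 29.1 and 146 with low and 429 and 483 with high T5. Its difference was 2.91 ± 0.56 (adjusted p = 0.00311, limma), with no overlap between the sides.

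CXCL8, a chemokine for neutrophils, went from 1.60 in DMSO to 3.68 and 15.7 at the low doses of T4 and to 88.1 and 92.5 at the high ones, and from 6.56 and 23.4 to 108 and 158 with T5. All 4 high libraries lay above all 4 low ones, and the difference was 3.32 ± 0.46 (adjusted p = 0.000965, limma). JUNB, another AP-1 subunit, had 4.42 in DMSO, 12.1 and 35.2 at low and 131 and 161 at high T4, and 14.0 and 45.3 at low and 176 and 189 at high T5. It differed by 2.77 ± 0.40 and every high library exceeded every low one.

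The promoters of EGR1 and CXCL8 are shown because these 2 genes stand for the early factors and the chemokines among the largest rises. Each run gives the 250 bases before the start of the gene, 5′ to 3′, from RefSeq on GRCh38.p14. In EGR1 (chr5:138465229-138465478, plus strand) the capitals mark 2 CArG boxes, the binding motif of serum response factor, which begin 105 and 83 bases before the start, and in CXCL8 (chr4:73740319-73740568, plus strand) they mark TGACTCA, the binding motif of AP-1, which begins 137 bases before the start.
EGR1: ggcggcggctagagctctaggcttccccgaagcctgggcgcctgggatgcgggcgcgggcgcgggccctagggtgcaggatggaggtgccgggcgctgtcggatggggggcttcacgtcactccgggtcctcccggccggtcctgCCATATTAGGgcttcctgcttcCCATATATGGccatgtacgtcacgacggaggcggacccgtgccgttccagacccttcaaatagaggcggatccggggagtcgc
CXCL8: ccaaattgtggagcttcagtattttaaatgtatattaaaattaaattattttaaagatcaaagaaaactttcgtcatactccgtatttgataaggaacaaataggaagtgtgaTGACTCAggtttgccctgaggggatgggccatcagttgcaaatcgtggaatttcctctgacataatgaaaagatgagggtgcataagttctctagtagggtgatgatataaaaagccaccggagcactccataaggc

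Motifs were searched on both strands. The CArG box was searched as CC, 6 letters that are each A or T, and GG. A promoter window was found for 8523 of the 10600 tested genes, and a CArG box lay in 1.47% of these windows, in 1.33% of those of called higher and in 1.37% of those of called lower genes, against 1.16% of all 35116 windows in the table. TGACTCA was in 4.02%, 4.06% and 3.99%, and in 4.20% of all windows. Of the 15 named rises, 12 had a window, and the CArG box was found in EGR1 and EGR2 and TGACTCA in CXCL8 and IL11 (16.7% each). Of the 16 tested immediate early genes 13 had a window, and 3 of these held a CArG box, EGR1, EGR2 and SRF, while none held TGACTCA. TGACGTCA, the cyclic AMP response element, was in 3.77% of tested, 3.11% of called higher and 4.14% of called lower windows and in 1.65% of all windows. It was in 0 of the 12 windows of the named rises and in 1 of the 13 of the immediate early genes, JUND. A match describes the letters of the window only.

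Also among the 15 named rises were ARC, an activity-regulated cytoskeletal protein (2.33 ± 0.49), the AP-1 subunit FOSB (2.03 ± 0.23), IER2 (1.92 ± 0.30) and EGR2 (1.41 ± 0.25). The chemokines CXCL3, CCL2 and CCL20 differed by 1.98 ± 0.36, 1.96 ± 0.30 and 1.94 ± 0.41. CCL2, which attracts monocytes, had 6.42 and 14.7 at the low and 50.3 and 43.2 at the high doses of T4, and 8.17 and 19.1 at the low and 39.8 and 52.0 at the high doses of T5. IL11, a cytokine of the interleukin-6 family, stood at 8.93 in DMSO and at 8.60 and 16.1 with low and 46.6 and 40.2 with high T4. With T5 it was at 10.5 and 31.5 on the low and at 120 and 114 on the high side, so the sides did not overlap but the T5 levels were the higher ones at each dose. Its difference was 2.20 ± 0.35 (adjusted p = 0.00146, limma).

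ZFP36, which binds AU-rich elements in the mRNAs of cytokines and early genes and speeds their decay, rose too. It had 1.86 in DMSO, 2.41 and 4.32 at low and 13.5 and 18.0 at high T4, and 2.83 and 6.74 at low and 16.2 and 28.7 at high T5, a difference of 2.01 ± 0.28 (adjusted p = 0.000943, limma). The kinase PIM1 (1.53 ± 0.20) and RRAD, a small GTPase of the Ras family (1.96 ± 0.27), completed the 15.

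**Figure D2:**
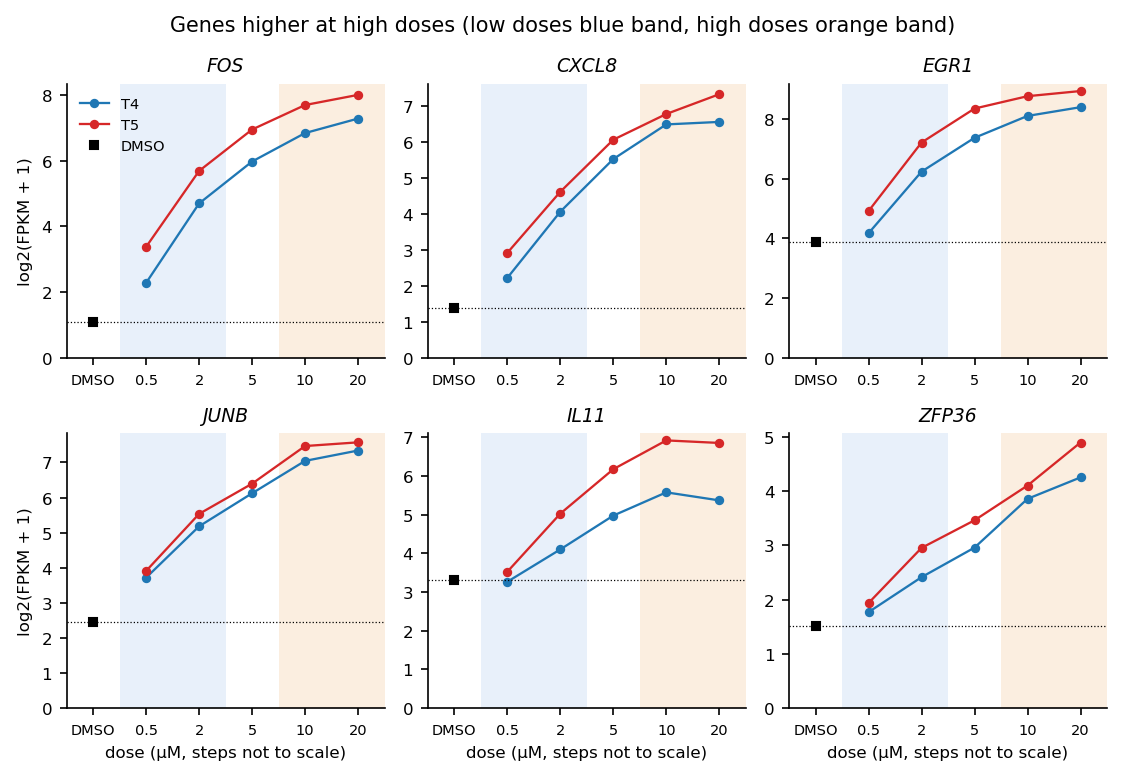
log2(FPKM + 1) of 6 genes that were higher at high doses (y axis) in the DMSO library and at each dose of T4 and T5 in µM (x axis, not to scale), 1 point per library, with the DMSO level as a dotted line. The genes were chosen for having all 4 points of the orange band (10 and 20 µM) above the 4 points of the blue band (0.5 and 2 µM), and FOS climbs from an FPKM of 3.88 to 154 with T4.

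Of 16 tested immediate early genes, 10 were higher and 2 lower at high doses, with a median difference of 0.87 against -0.06 over all tested genes, and median centring gave 11 and 1. Counts of this and the later lists are to be read against 28.8% higher and 36.7% lower among all tested genes. JUN rose by 0.82 ± 0.18, from 41.2 and 62.5 to 79.4 and 91.8 with T4 and from 46.7 and 72.4 to 122 and 98.6 with T5. NR4A1 and MYC also rose but with overlapping sides. NR4A1 was not called without T4 at 0.5 or T5 at 10 or 20 µM, and MYC not without T4 at 0.5, 10 or 20 or T5 at 0.5 or 10 µM. FOSL2 and FOSL1, the AP-1 subunits of the FOS-like kind, fell by 1.70 ± 0.21 and 0.77 ± 0.20, FOSL2 from 26.1 and 22.2 to 7.06 and 3.83 with T4, and FOSL1 was not called under either scaling (-0.41 with each). ATF3, IER5, SRF and JUND were not called. ATF3 was highest at 2 µM with T4, at 19.6, and at 2 and 5 µM with T5, at 26.6 and 27.0, and was at 5.32 and 9.63 at 20 µM T4 and T5.

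Among 9 tested chemokines and cytokines 6 were higher and 2 lower, with a median difference of 1.94. LIF, of the interleukin-6 family like IL11, rose by 0.68 ± 0.13, while CSF1, the growth factor of macrophages, fell by 0.65 ± 0.13, a call lost with quantile normalization (-0.30, adjusted p = 0.0606, limma). IL6 itself was called lower at -0.38 ± 0.13, from levels of 1.099 to 1.85 at low and 0.501 to 1.37 at high doses, but not under 9 alternatives, among them either scaling (-0.02 and -0.09) and leaving out T4 or T5 at 2 or 20 µM. The subunits and inhibitors of NF-kB, a factor that drives many chemokine genes, were 8 lower and 2 higher of 15. RELA, its main activating subunit, fell by 1.14 ± 0.15, from 23.5 and 17.2 to 9.65 and 6.88 with T4 and from 18.7 and 14.1 to 7.88 and 6.63 with T5. NFKBIZ, of the same list, rose by 1.19 ± 0.21. NFKBIA, the other member called higher, was at 0.56 ± 0.20 and was not called with quantile normalization, without the filter, with 5 µM on the low side, or without T4 at 10 or 20 µM or T5 at 0.5, 10 or 20 µM. With median centring 5 members were lower.

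Genes that act against or end growth factor signalling split. DUSP2 and DUSP1, phosphatases of MAP kinases, rose by 1.31 ± 0.33 and 0.69 ± 0.15, whereas 9 of 13 members of the feedback list fell, among them the Ras pathway inhibitors SPRED2 (-1.69 ± 0.26) and SPRED1 (-1.29 ± 0.25, not called with 5 µM on the low side, -0.91, adjusted p = 0.0548, limma) and the phosphatases DUSP10 (-1.15 ± 0.13) and DUSP5 (-0.99 ± 0.14). With median centring 6 fell and 2 rose. KLF6 and KLF2, zinc finger factors, rose by 1.27 ± 0.20 and 1.06 ± 0.18, and KLF11, KLF5, KLF9 and KLF13 fell. KLF10, the third of 3 higher and 4 lower of 10, was not called under 9 alternatives, and KLF5 not with 5 µM on the high side (-0.74, adjusted p = 0.0691, limma). The KLF counts lay near the shares of all tested genes, 28.8% higher and 36.7% lower.

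Of the 15 named falls, 6 were in genes of mitosis, described first, and 3 in genes of ribosome assembly. AURKA, a kinase needed to build the spindle, had 40.6 in DMSO, 44.3 and 32.6 at the low and 4.54 and 1.81 at the high doses of T4, and 40.6 and 18.5 at the low and 2.18 and 0.549 at the high doses of T5. Every high library was below every low one, and the difference was -3.49 ± 0.35 (adjusted p = 0.00063, limma), the largest in size of all named genes. TTK, the spindle checkpoint kinase, fell by 2.54 ± 0.28, CDCA8, which sits in the chromosomal passenger complex, by 2.44 ± 0.28, HJURP, the chaperone that places the centromeric histone, by 2.43 ± 0.26, and the spindle protein FAM83D by 2.73 ± 0.32. FBXO5, an inhibitor of the anaphase-promoting complex, fell by 2.47 ± 0.34.

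MPHOSPH10, WDR43 and LTV1 take part in the assembly of the small ribosomal subunit. MPHOSPH10 was at 17.9 in DMSO, at 23.0 and 21.5 with low and 2.93 and 1.21 with high T4, and at 23.9 and 16.9 with low and 3.73 and 0.945 with high T5, a difference of -2.89 ± 0.30. WDR43 differed by -2.72 ± 0.30 and LTV1 by -2.59 ± 0.25. All 3 genes were at or above the DMSO level at 0.5 µM of either compound and below it at 10 and 20 µM.

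GTF2B, the general factor that joins RNA polymerase II to the promoter, stood at 10.9 in DMSO, at 18.2 and 19.3 at the low and 3.92 and 1.37 at the high doses of T4, and at 21.2 and 15.03 at the low and 3.74 and 1.07 at the high doses of T5. The difference was -2.56 ± 0.31 (adjusted p = 0.000669, limma). CTCF, the zinc finger protein that bounds chromatin loops, fell by 2.52 ± 0.25, from 20.5 and 15.5 to 3.11 and 1.60 with T4 and from 20.5 and 10.9 to 2.61 and 1.21 with T5. The sides of both genes were far apart, with the lowest low library of CTCF at 10.9 and its highest high library at 3.11. DDX20, a helicase of the complex that assembles spliceosomal particles, fell by 2.48 ± 0.25, CCDC12 by 2.65 ± 0.34, the mitochondrial hydrolase PTRH2 by 2.62 ± 0.30 and the growth factor BMP4 by 2.61 ± 0.29.

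**Figure D3:**
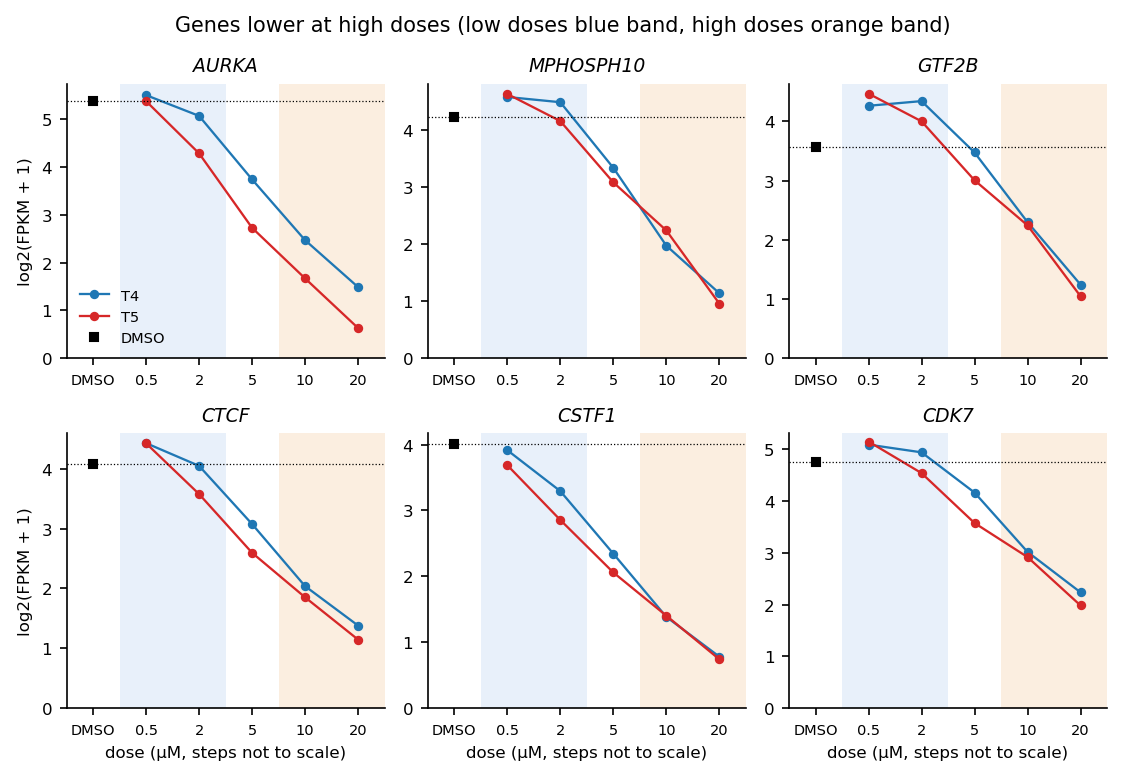
log2(FPKM + 1) of 6 genes that were lower at high doses (y axis) in the DMSO library and at each dose of T4 and T5 in µM (x axis, not to scale), 1 point per library, with the DMSO level as a dotted line. They are shown for the size of their falls, and the first 4 were chosen for having the orange band (10 and 20 µM) wholly below the blue band (0.5 and 2 µM). AURKA reaches an FPKM of 0.549 at 20 µM T5.

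Of 30 tested G2/M genes, 25 were lower and none higher, with a median difference of -1.18, but with median centring 20 were lower and 3 higher. PLK1, a kinase of mitotic entry, went from 41.3 and 39.0 to 17.1 and 9.47 with T4 and from 37.0 and 27.8 to 7.80 and 3.80 with T5 (-1.96 ± 0.27). Cyclin B1 (CCNB1) fell by 0.84 ± 0.12 and its kinase CDK1 by 0.59 ± 0.07, from 105 to 118 at low to 67.3 to 81.5 at high doses, the last not called with median centring (-0.24, adjusted p = 0.0679, limma). BIRC5, TOP2A, KIF20A, CDC25B and MAD2L1 were not called, and BIRC5 had 51.6 to 58.8 on the low and 54.5 to 65.6 on the high side. Genes of G1/S and replication were 14 lower and 7 higher of 27, and the split depended on the scale, with 8 lower and 11 higher after median centring. CDC25A, a phosphatase that activates cyclin-dependent kinases, fell by 1.88 ± 0.23 and ORC1, of the origin recognition complex, by 1.69 ± 0.19.

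Among the 20 cleavage and polyadenylation factors, 12 were lower and 4 higher at high doses, with a median difference of -0.50, but median centring gave 10 lower and 8 higher and quantile normalization 11 and 5. In the cleavage stimulation factor, CSTF1 fell by 2.36 ± 0.27, from 14.1 and 8.80 to 1.61 and 0.718 with T4 and from 11.9 and 6.23 to 1.64 and 0.672 with T5, against 15.1 in DMSO. CSTF2T, a paralog of CSTF2, fell by 1.495 ± 0.20 and CSTF2 by 0.41 ± 0.08, while CSTF3 was at -0.06 ± 0.07 and was not called. CSTF3 had 39.9 in DMSO and 13.6 to 17.4 in all 10 treated libraries with T4 or T5, so it was lower than DMSO on both sides. Median centring called it higher between them (0.30, adjusted p = 0.0165, limma). The fall of CSTF2 was not called after median centring (-0.06, adjusted p = 0.524, limma) or with 5 µM on the low side (-0.29, adjusted p = 0.0583, limma).

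In the specificity factor, which reads the polyadenylation signal, the subunits parted. FIP1L1 fell by 1.49 ± 0.17, from 23.0 and 22.9 to 8.99 and 5.51 with T4 and from 24.7 and 18.8 to 8.92 and 6.38 with T5. WDR33, which contacts the signal, fell by 1.06 ± 0.28, yet it was already at 3.87 and 2.71 with 2 µM T4 and T5 against 12.8 in DMSO, and with the 5 µM libraries placed on the low side it was not called (-0.69, adjusted p = 0.127, limma). CPSF4 fell by 0.82 ± 0.17, and not when 5 µM counted as low (-0.58, adjusted p = 0.0509, limma). CPSF1, the largest subunit, rose by 0.37 ± 0.07 and the scaffold SYMPK by 0.49 ± 0.07. SYMPK had 13.3 to 14.6 on the low and 18.6 to 22.2 on the high side, against 18.0 in DMSO. The nuclease CPSF3 (0.04 ± 0.11) was not called except with median centring (0.40, higher). CPSF2 (0.30 ± 0.15) was not called either. It had fallen from 11.1 in DMSO to 3.81 to 6.22 at low doses and stood at 4.93 to 7.17 at high ones, and was called higher without the library of 0.5 µM T4 (0.41, adjusted p = 0.0465, limma) and with either scaling (0.66 and 0.65).

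CLP1, of cleavage factor II, was above DMSO at the low doses and below it at the high ones. It had 7.40 in DMSO, 11.2 and 15.2 at low and 4.26 and 1.51 at high T4, and 12.1 and 13.8 at low and 3.91 and 1.25 at high T5, a difference of -2.01 ± 0.30 (adjusted p = 0.0012, limma). RBBP6, which activates the nuclease, behaved in the same order, with 7.90 to 11.5 at low and 2.37 to 5.20 at high doses against 6.12 in DMSO (-1.23 ± 0.23). PCF11, the partner of CLP1, had 4.74 in DMSO and 1.68 to 2.15 already at low doses, and fell on to 0.8003 to 1.07 (-0.59 ± 0.09). In cleavage factor I, CPSF7 fell by 0.92 ± 0.13 and CPSF6 by 0.24 ± 0.06, a call lost with quantile normalization (-0.08, adjusted p = 0.321, limma) and turned in sign by median centring (0.11), and NUDT21 (0.11 ± 0.07) was called higher only with median centring (0.46). Of the poly(A) polymerases, PAPOLG fell by 1.54 ± 0.19 and PAPOLA rose by 0.29 ± 0.06, and the tail-binding protein PABPN1 rose by 0.42 ± 0.08.

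Transcription elongation, the exosome and splicing regulators follow, to be read against 36.7% lower among all tested genes. Of 23 tested elongation genes, 18 were lower and 1, NELFCD, higher (median -0.90; 13 lower and 2 higher with median centring). CDK7, the kinase of transcription factor IIH, went from 33.1 and 29.8 to 7.11 and 3.72 with T4 and from 34.6 and 22.3 to 6.57 and 2.96 with T5, a difference of -2.39 ± 0.25. MEPCE, the capping enzyme of the 7SK RNA that restrains the positive elongation factor, fell by 1.92 ± 0.29, and CCNT1, the cyclin of that factor, by 1.53 ± 0.18. CDK12 and CDK13, which phosphorylate the polymerase tail during elongation, fell by 1.43 ± 0.22 and 1.44 ± 0.19, and CDK9, LARP7, NELFB and SUPT4H1 were not called.

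Of 17 exosome subunits and adaptors, which degrade RNA in the nucleus, 13 were lower and 2 higher (9 and 3 with median centring). RBM7, an adaptor for nascent transcripts, fell by 2.25 ± 0.21, from 14.0 and 10.9 to 2.07 and 1.31 with T4 and from 14.1 and 8.26 to 2.25 and 1.096 with T5. EXOSC9 fell by 1.35 ± 0.16. SR proteins and CLK kinases, which steer splicing, were 11 lower and 1 higher of 17, with SRSF4 at -1.96 ± 0.28 and SRSF3 at -1.54 ± 0.24. CLK1, which phosphorylates SR proteins, differed by -1.93 ± 0.38 and was above its DMSO level of 12.3 at the low doses, at 15 to 25.4. Deadenylases and their adaptors were 10 lower and 1 higher of 17, with CNOT8 at -1.82 ± 0.20, and the Integrator complex was 4 and 4 of 14, with INTS12 at -1.68 ± 0.19.

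Of 8 AU-rich element binding proteins 3 were higher, ZFP36, ZFP36L1 (1.06 ± 0.27) and HNRNPD (0.30 ± 0.07), and TIAL1 was lower (-1.26 ± 0.14). ZFP36L1 had overlapping sides, 53.6 to 138 at low and 118 to 238 at high doses, and its call was lost with the 5 µM libraries on the low side (0.70, adjusted p = 0.115, limma). HNRNPD was not called with quantile normalization (0.10, adjusted p = 0.304, limma).

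Receptors and adaptors of cell death were 8 lower and none higher of 11 (median -0.63; 5 lower and none higher with median centring). TNFRSF1A, a receptor of tumour necrosis factor, had 29.2 in DMSO, 17.4 and 6.76 at low and 1.38 and 0.844 at high T4, and 10.1 and 4.41 at low and 1.47 and 0.906 at high T5, a difference of -2.17 ± 0.34. It was thus below DMSO in every T4 and T5 library, and each step in dose of either compound lowered it. Its adaptors TRAF2, RIPK1 and FADD fell by 1.44 ± 0.28, 1.09 ± 0.22 and 1.01 ± 0.18. In the BCL2 family, which governs the mitochondrial path to cell death, 6 were lower and 3 higher of 13. Among all tested genes 36.7% were lower and 28.8% higher. BAK1, which promotes death, fell by 1.36 ± 0.22, BCL2L11 by 1.24 ± 0.17 and the protective BCL2L1 by 0.92 ± 0.16, a call lost when 5 µM counted as low (-0.64, adjusted p = 0.0504, limma), and BAX rose by 0.54 ± 0.09.

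Of 26 p53 targets, 12 were lower and 6 higher, against 36.7% and 28.8% of all tested genes, and 8 and 8 after median centring. PPM1D, a phosphatase opposing p53, fell by 2.05 ± 0.24, from 15.1 and 13.3 to 2.94 and 2.16 with T4 and from 15.1 and 7.998 to 2.99 and 1.28 with T5. MDM2, the ubiquitin ligase of p53, fell by 1.18 ± 0.12. CDKN1A, the inhibitor of cyclin-dependent kinases, was at 31.6 in DMSO, at 32.0 and 56.0 with low and 38.5 and 25.5 with high T4, and at 41.8 and 78.2 with low and 62.6 and 31.9 with high T5, so the sides overlapped and it was not called (-0.39 ± 0.30).

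Stress and metabolic lists had members on both sides. Their counts stand against 36.7% lower and 28.8% higher among all tested genes. The integrated stress response was 8 lower and 3 higher of 16, with SESN2 at -1.77 ± 0.20 and TRIB3 at -1.51 ± 0.21, and ATF4, its main transcription factor, was not called (-0.22 ± 0.14). The unfolded protein response was 4 lower and 4 higher of 14, near or under the shares of all tested genes. XBP1 was at -1.77 ± 0.29 and HERPUD1 at -1.496 ± 0.24. Among heat shock genes, BAG3 (-1.68 ± 0.21) and HSF2 (-1.45 ± 0.20) were among 6 lower and 4 were higher of 14, against 4 lower and 6 higher with median centring and 6 and 1 with quantile normalization. In the NRF2 and glutathione list 8 were lower and 6 higher of 16, with GCLC, which limits glutathione synthesis, at -2.25 ± 0.30 and the NRF2 inhibitor KEAP1 at -1.94 ± 0.23. Cholesterol synthesis genes were 10 lower and 3 higher of 16, with SQLE, which oxidises squalene, at -2.23 ± 0.26, and 6 lower and 5 higher after median centring. In Fanconi anaemia and homologous recombination 11 were lower and 3 higher of 21, with PALB2 at -1.37 ± 0.17, and 7 each after median centring.

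In polyamine metabolism 5 were higher and 3 lower of 10. AMD1, which makes the aminopropyl donor, fell by 1.69 ± 0.24. SAT1, which acetylates polyamines, had 1.73 in DMSO, 4.40 and 23.2 at low and 39.9 and 25.9 at high T4, and 10.1 and 42.3 at low and 73.3 and 52.0 at high T5. Its sides overlapped, and its difference of 1.53 ± 0.55 (adjusted p = 0.039, limma) was not called without any 1 of 6 libraries, namely T4 at 0.5, 10 or 20 µM (1.09, 1.41 and 1.65) and T5 at 0.5, 10 or 20 µM (1.14, 1.43 and 1.63). Nor was it called with no compound block (adjusted p = 0.0529, limma), no filter (adjusted p = 0.092, limma) or 5 µM on the low side (0.96, adjusted p = 0.21, limma).

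Small rises ran through the abundant genes of translation and respiration. Of 67 tested cytosolic ribosomal protein genes 59 were higher and none lower, with a median difference of 0.33, but with quantile normalization 17 were higher and 8 lower. RPS2 had 581 and 702 at low and 777 and 758 at high T4, and 537 and 697 at low and 982 and 881 at high T5 (0.43 ± 0.12), a call lost with quantile normalization (0.09, adjusted p = 0.311, limma) and with 5 µM on the low side (0.31, adjusted p = 0.0811, limma). Many of these genes have processed copies in the genome, and how reads were shared among them is not stated for these values. Of 73 nuclear-encoded respiratory chain genes 58 were higher and 2 lower, with a median of 0.35, and 53 and 3 with quantile normalization. NDUFA3, a subunit of complex I, rose by 0.68 ± 0.07, from 45.7 to 53.7 on the low to 76.9 to 84.1 on the high side, and SDHA, the flavoprotein of complex II, fell by 0.75 ± 0.15, as did UQCRFS1 of complex III (-0.60 ± 0.14), the latter not called with median centring (-0.25, adjusted p = 0.115, limma).

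Mitochondrial ribosomal proteins were 35 lower and 17 higher of 75, set against 36.7% and 28.8% of all tested genes, and 28 and 32 after median centring. MRPL44 fell by 1.90 ± 0.29, from 15.7 to 20.8 at low to 2.44 to 7.25 at high doses. Of 20 import proteins 10 were lower and 6 higher, and 7 and 8 after median centring, with TIMM9, a chaperone between the mitochondrial membranes, at -1.77 ± 0.33 and TOMM70A, an outer membrane receptor, at -1.74 ± 0.18. Proteasome subunits were 12 higher and 9 lower of 31, and this split went to 21 and 3 with median centring and to 6 and 14 with quantile normalization. PSMC6, a subunit of the base, fell by 1.21 ± 0.14, and by 0.85 or more under either scaling. Among host genes of small nucleolar RNAs and abundant noncoding RNAs 6 were lower and 5 higher of 16, near the shares of all tested genes, and 4 and 7 after median centring, with SNHG12 at -1.35 ± 0.14 and MALAT1 at 0.97 ± 0.21.

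**Figure D4:**
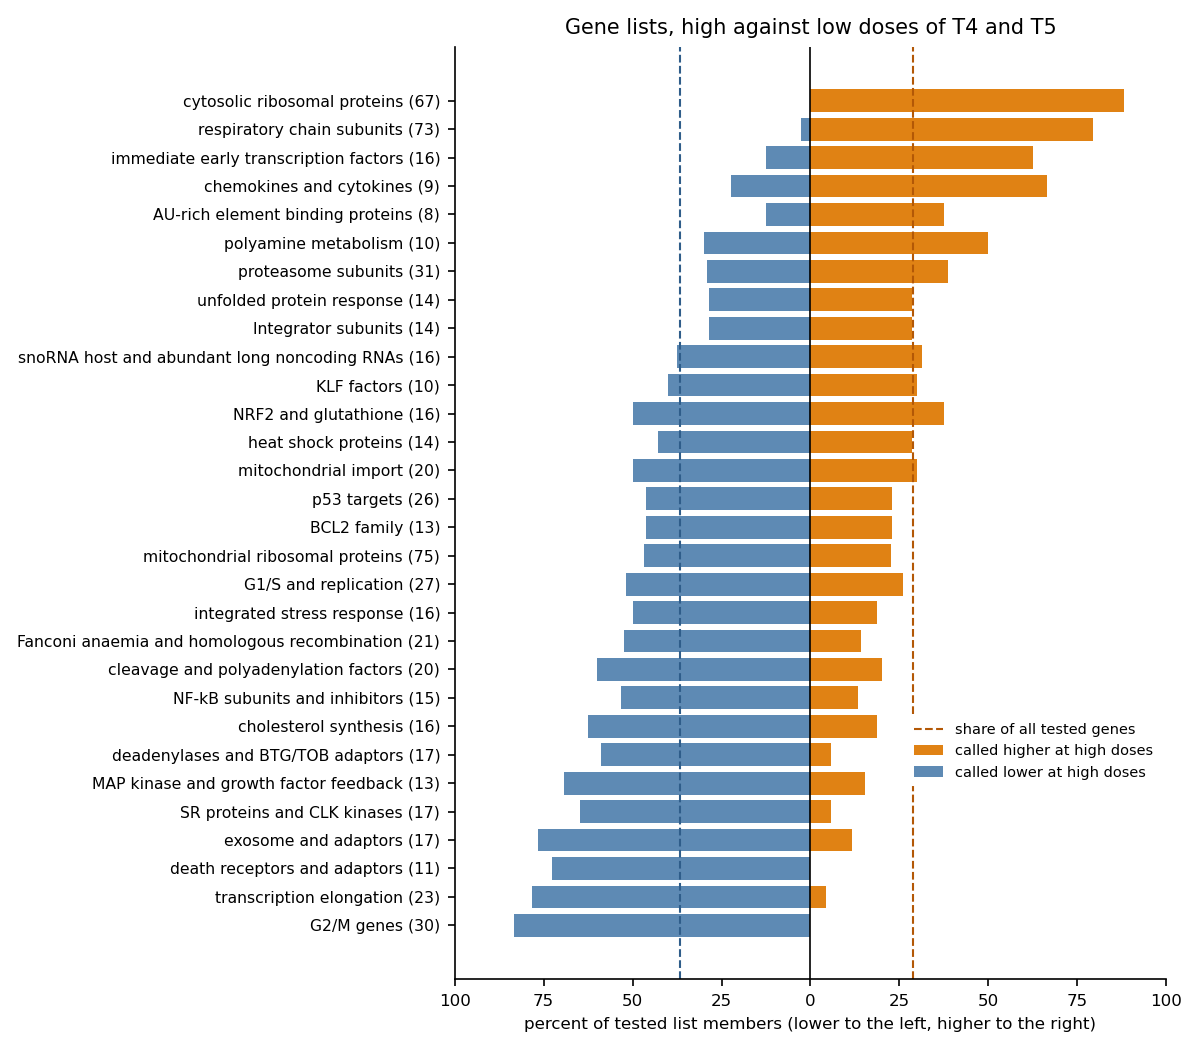
Percent of the tested members of each gene list called higher (orange, to the right) or lower (blue, to the left) at high doses by limma, with the number tested in brackets. Dashed lines mark the shares of all tested genes, 28.8% higher and 36.7% lower. Cytosolic ribosomal proteins and respiratory chain genes stand at the top and G2/M genes at the bottom, and the ribosomal share holds for FPKM as deposited and not with quantile normalization.

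The single DMSO library showed on which side of untreated cells the changes lay. Of the 3889 lower genes 2107 were at least 1 log2 unit below DMSO at high doses, and of the 3054 higher genes 80 were at least 1 above. This balance turned with the scale, to 859 and 1610 with median centring, and a bound of 0.5 gave 3095 and 1047. A smaller group moved the other way first. There were 36 genes at least 1 above DMSO at low doses that were lower at high doses, and 81 genes at least 1 below DMSO at low doses that were higher at high doses. Of the other genes that far above DMSO at low doses, 23 were called higher and the rest not called (69 still 1 above at high doses, 42 not). Of the others that far below, 204 were called lower and the rest not called (264 still 1 below, 66 not). Both classes were thus a smaller part of such genes than the 36.7% lower and 28.8% higher among all tested genes. No gene crossed from 1 above to 1 below or the reverse. These classes use the values of the comparison itself and a single DMSO library and are given as a description.

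HEXIM1, the inhibitor of the positive elongation factor, was of the first kind, at 8.44 in DMSO, 24.1 and 47.4 at 0.5 and 2 µM T4, 38.5 at 5 µM, 18.1 and 6.93 at 10 and 20 µM, and with T5 at 38.7, 61.0, 51.5, 31.7 and 7.24 in the same order. It peaked at 2 µM with both compounds and was below DMSO at 20 µM. The sides overlapped, and the difference of -1.55 ± 0.48 (adjusted p = 0.0216, limma) was not called without T4 at 2 or 20 µM (-1.37 and -1.31) or T5 at 2 or 20 µM (-1.41 and -1.14), or with 5 µM on the high side (-0.99).

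JAG1, a ligand of Notch receptors, had 5.19 in DMSO, 11.3 and 16.7 at low and 5.32 and 2.31 at high T4, and 14.5 and 17.3 at low and 9.54 and 3.80 at high T5 (-1.47 ± 0.30, adjusted p = 0.00414, limma). TLE3, a corepressor in the Notch and Wnt pathways, had 5.10 in DMSO, 10.3 and 16.5 at low and 4.81 and 2.05 at high T4, and 12.8 and 12.8 at low and 5.28 and 2.49 at high T5 (-1.65 ± 0.27). In both genes every high library was below every low one. AXIN2 and DACT1, which restrain Wnt signalling, differed by -1.43 ± 0.23 and -1.68 ± 0.37, the latter not called with 5 µM on the high side (-1.17, adjusted p = 0.0508, limma). RNF103, a ubiquitin ligase, and RCL1, of ribosomal RNA processing, differed by -1.56 ± 0.19 and -1.497 ± 0.19.

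OGDH, a dehydrogenase of the citric acid cycle, showed the opposite order. It had 15.4 in DMSO, 5.19 and 4.55 at low and 10.5 and 12.3 at high T4, and 4.58 and 5.21 at low and 10.1 and 14.2 at high T5, a difference of 1.11 ± 0.12 (adjusted p = 0.00063, limma). PPP3CB, a catalytic subunit of calcineurin, went from 21.8 in DMSO to 9.27 and 7.81 and then 17.4 and 21.3 with T4, and to 8.09 and 8.06 and then 14.6 and 19.1 with T5 (1.03 ± 0.11). Both were at their lowest at low doses and close to the DMSO level at 20 µM. ZDHHC13, a palmitoyltransferase, EPDR1, the ribonuclease LACTB2, the ceramide kinase CERK, TMEM194A and FAM69A were alike in order, with differences between 0.86 ± 0.15 for FAM69A and 1.11 ± 0.12 for ZDHHC13.

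**Figure D5:**
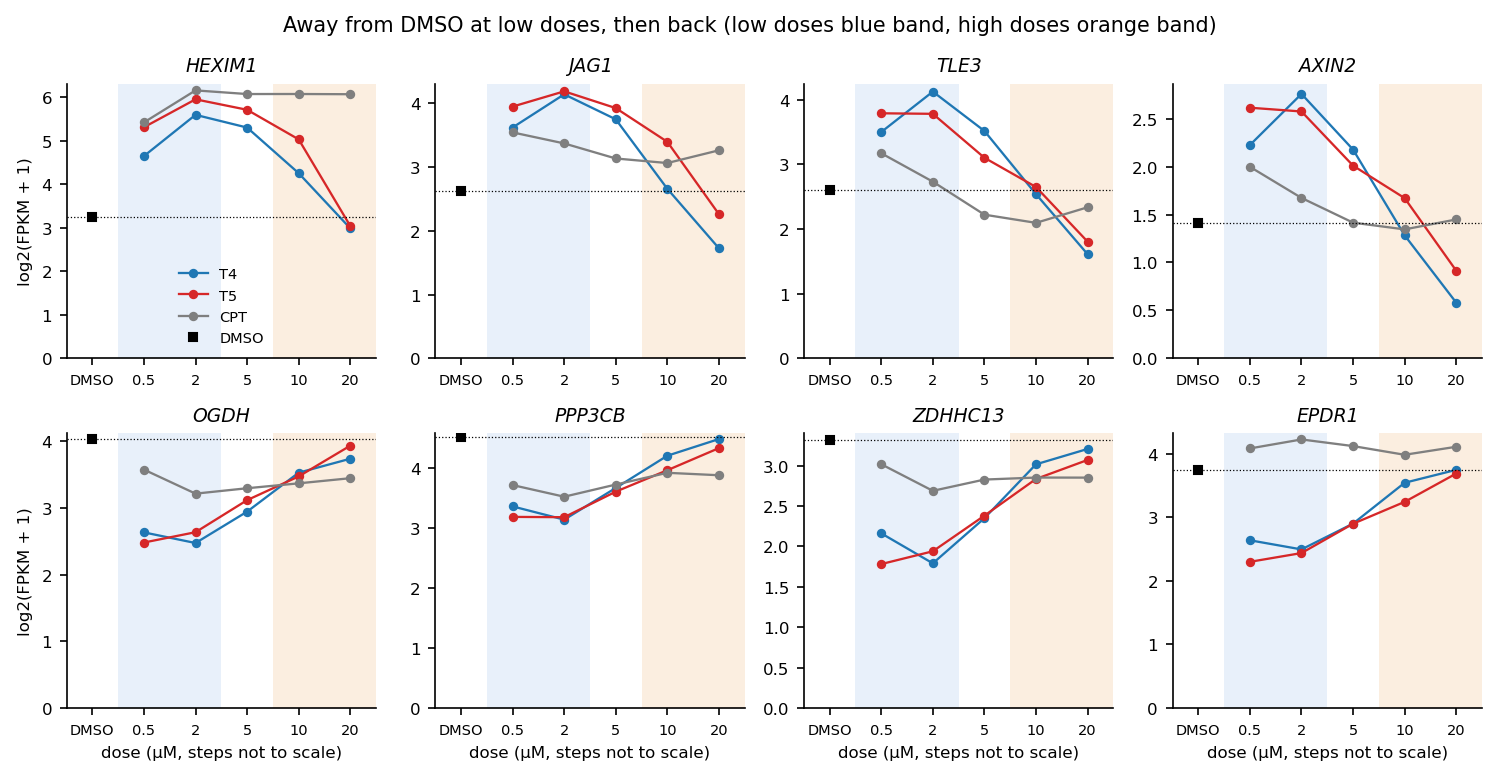
log2(FPKM + 1) (y axis) in DMSO and at each dose of T4, T5 and CPT in µM (x axis, not to scale), 1 point per library, for 4 genes above DMSO at low doses of T4 and T5 and lower at high doses (upper row) and 4 genes below DMSO at low doses and higher at high doses (lower row). HEXIM1 stays at an FPKM of 66.2 to 70.5 from 2 to 20 µM CPT and falls to 6.93 and 7.24 at 20 µM T4 and T5.

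The genes of these classes differed in structure, as annotated by GENCODE release 29, in which 94.7% of tested genes were matched by symbol. Of the 33 matched genes above DMSO at low doses and lower at high doses, 12 (36.4%) had 1 or 2 exons and the median span from the first to the last base was 11.9 kb, against 7.81% and 31.3 kb over all tested genes. Their median FPKM in DMSO was 1.66, against 8.71 over all tested genes. The matched genes of the opposite class had a median span of 59.1 kb. Called higher genes had 1 or 2 exons in 4.02% and called lower genes in 9.33% of cases, with median spans of 28.9 and 33.3 kb. Among the 472 genes with 2 exons 51.5% were lower and 15.5% higher, with a median difference of -0.44. The 312 genes with 1 exon were 33% lower and 13.8% higher, with a median of -0.11. Among the 922 genes of up to 5 kb 21.4% were lower and 34.3% higher, with a median of 0.13. The 915 genes over 160 kb had similar shares, 26.8% lower and 34% higher, with a median of 0.03. These shares are descriptions over genes, which are not independent replicates.

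The differences of the compounds were set side by side. Across genes the T4 and T5 differences had a Pearson correlation of 0.88, given as a description over 10600 genes that share library scale and length. A test of the difference between the compounds, T5 minus T4 of the high minus low value, called 0 genes higher (0%) and 1 lower (0.00943%) by limma, and 143 genes passed an unadjusted p of 0.05. The 1 call, named here after its values were seen, was the small nucleolar RNA SNORA48, listed at 132.8 and 134 in 0.5 and 2 µM T5 and at 0 in all other libraries. FPKM of so short an RNA is unreliable.

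With 2 libraries per compound and side, the intervals of these differences are wide. For FOS the compounds differed by -0.25 (95% interval -3.39 to 2.88), for CXCL8 by -0.09 (-2.47 to 2.29), for AURKA by -0.37 (-2.13 to 1.38) and for CSTF1 by 0.32 (-1.03 to 1.67). IL11 had the largest positive value of the named genes, 0.82 (-0.80 to 2.44), and SRSF3 the largest negative one, -0.70 (-1.72 to 0.33). Of 185 named genes, the unadjusted interval left out 0 for 1, the polyamine oxidase SMOX, at 0.75 (0.12 to 1.38). SMOX had 5.87 and 4.88 at low and 1.503 and 0.969 at high T4 but 5.73 and 5.20 at low and 3.07 and 2.56 at high T5. For the 15 named rises and the 15 named falls the intervals reached at least 1.01 log2 units to either side of the value.

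CPT was given at the same doses, with 2 libraries per side. Its high minus low differences had a Pearson correlation of 0.68 with those of T4 and T5 across genes. The median size of the difference was 0.43 for T4, 0.42 for T5 and 0.33 for CPT. The 15 named rises with T4 and T5 all had a higher mean at high than at low doses of CPT too, by 0.21 to 1.999. For IL11, CCL2 and CCL20 the CPT sides overlapped, however. IL11 had 27.05 and 43.4 at low and 44.8 and 35.5 at high CPT. CCL2 had 7.93 and 14.8 at low and 14.2 and 11.5 at high CPT, and CCL20 14.5 and 50.1 against 43.0 and 40.9. The 15 named falls all had negative differences of means, -1.88 to -0.003. FOS had 4.26 and 13.8 at low and 26.7 and 33.5 at high CPT, and AURKA 16.6 and 10.3 at low and 4.58 and 4.41 at high CPT. In the test of the difference between T4 and T5 on one hand and CPT on the other, none of the 15 rises was called (adjusted p from 0.0597 to 0.992, limma), with PIM1 at 1.27 ± 0.31 and IL11 at 1.99 ± 0.57, and 4 of the 15 falls were.

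The test of the difference, T4 and T5 minus CPT, called 100 genes higher (0.943%) and 181 lower (1.71%). FAM83D, the spindle protein, was at 15.9 and 22.0 at low and 17.8 and 19.2 at high CPT, while T4 took it from 24.0 and 17.3 to 3.11 and 1.11 and T5 from 19.4 and 8.98 to 2.08 and 0.804. The difference was -2.71 ± 0.49 (adjusted p = 0.0393, limma). BMP4 (-2.55 ± 0.46), FBXO5 (-2.47 ± 0.52) and FASTKD5, of mitochondrial RNA processing (-2.23 ± 0.46), were also near level with CPT, at CPT differences of -0.06, -0.003 and -0.16.

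MFSD5, FAM53C, CLP1 and TMEM177 had positive CPT differences, of 0.49, 0.41, 0.26 and 0.39, where those of T4 and T5 were negative. CLP1 had 20.1 and 32.6 at low and 30.9 and 30.8 at high CPT, so that only the 0.5 µM library lay below the others, and its difference was -2.27 ± 0.49 (adjusted p = 0.0478, limma). MFSD5 had 19.0 and 25.5 at low and 30.3 and 32.2 at high CPT, and differed by -2.57 ± 0.34. FAM53C differed by -2.30 ± 0.40 and TMEM177 by -2.24 ± 0.41. TMEM177 was below DMSO in every T4 and T5 library and above it in every CPT library used.

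On the higher side the values were smaller. TAF12, a subunit of the general factor TFIID, differed by 1.48 ± 0.24, with 13.7 and 9.47 at low and 6.19 and 6.82 at high CPT against 5.83 and 4.30 to 8.13 and 8.95 with T4. It thus fell between the sides of CPT and rose between those of T4 and T5. Every T4 and T5 library was nevertheless below its DMSO level of 12.9. The kinase CAMKK2 (1.27 ± 0.24), LINC01029 (1.25 ± 0.21), FLYWCH2 (1.18 ± 0.24) and PYGO1, a Wnt coactivator (1.16 ± 0.20), had the same signs. Their T4 and T5 means were also below DMSO on both sides. The low and high means minus DMSO were -0.77 and -0.16 for CAMKK2 and -1.29 and -0.50 for LINC01029. They were -1.12 and -0.56 for FLYWCH2 and -0.82 and -0.39 for PYGO1. EPDR1 (1.19 ± 0.19), CERK (1.16 ± 0.22) and ID3, an inhibitor of transcription factors (1.17 ± 0.21), had CPT differences between -0.12 and -0.11. ID3 had 35.2 and 46.6 at low and 90.5 and 96.8 at high T4, and 44.9 to 52.4 in all 4 CPT libraries.

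These calls rested on single libraries. No gene was called either way without T4 at 0.5, 2, 10 or 20 µM, or without T5 at 0.5 or 20 µM. Without CPT at 0.5 µM 9 and 8 genes were called higher and lower, without CPT at 10 µM 0 and 5, without CPT at 20 µM 0 and 2, without CPT at 2 µM 245 and 435, without T5 at 2 µM 127 and 360, and without T5 at 10 µM 97 and 306. Median centring gave 243 and 247 and quantile normalization 374 and 358. The sizes moved less than the calls: FAM83D stayed between -2.94 and -2.49 and TAF12 between 1.23 and 1.72 in all 12 fits that left out 1 library.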

How the data were processed

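RNA of U2OS cells was sequenced in 16 libraries, 1 for DMSO and 1 for each of 5 doses of T4, T5 and CPT. The authors deposited FPKM per gene, per the file headers; the submitters' processing notes list the builds hg19 and GRCh37 and the tools GSNAP and Cufflinks, with no version or role, and the sources used here do not give strand, poly(A) selection or the handling of reads shared by similar genes. FPKM keeps no absolute depth, so no counting error can be given, and log2(FPKM + 1) understates changes of low genes.

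Of 25270 genes, 10600 averaged 1 FPKM or more over the 16 libraries and were fitted on log2(FPKM + 1) with limma 3.58.1 (R 4.3.3, mean-variance trend, 2-sided, Benjamini-Hochberg adjustment over all tested genes, threshold 0.05), with side and compound as terms. The compounds were compared by interaction terms, T5 against T4 over 8 and T4 and T5 against CPT over 12 libraries. Neither uses DMSO. The fit was tested on simulated data.

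Named were the 15 largest differences each way among called genes with no overlap between sides, 8 of each class against DMSO, 8 each way against CPT, the 4 largest of each of 33 lists and all cleavage and polyadenylation factors; other list members were chosen for the text after their values were seen. A few genes that meet the rule are not reported here. The members and lists were chosen with earlier results of these data known. Alternatives were another pseudocount, filter or scaling, no trend, no block, 5 µM on either side, and each library left out. Tables and plots used Python 3.11.15, pandas 2.3.3 and matplotlib 3.10.9.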

Additional observations from a re-analysis of the deposited data

Results flagged for a closer look

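The difference between high and low doses differed between T4 and T5 in 1 gene by the interaction term, and in the lower direction: SNORA48 at -7.07, which rested on FPKM of 132.8 and 134 in 0.5 and 2 µM T5 and 0 elsewhere. Between T4 and T5 together and CPT it differed in 100 genes upward and 181 downward by the interaction term. The largest named values downward were -2.71 for FAM83D, -2.57 for MFSD5, -2.55 for BMP4, -2.47 for FBXO5, -2.30 for FAM53C, -2.27 for CLP1, -2.24 for TMEM177 and -2.23 for FASTKD5. Upward they were 1.48 for TAF12, 1.27 for CAMKK2, 1.25 for LINC01029, 1.19 for EPDR1, 1.18 for FLYWCH2, 1.17 for ID3, 1.16 for PYGO1 and 1.16 for CERK. Every group had 1 library, so no library could be compared with others of its own group.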

How the results depend on the processing

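Over leave-one-out fits, high against low doses gave 2545 to 2962 higher and 3494 to 4118 lower genes, T5 against T4 0 to 3 and 1 to 7, and T4 and T5 against CPT 0 to 245 and 0 to 435. A mean FPKM of at least 5 gave 2103 lower genes, and median centring 5260 higher. Without a filter T5 against T4 gave 6 higher and 4 lower. Against CPT a pseudocount of 0.1 gave 279 lower, no filter 228 higher, a mean FPKM of at least 5 31 higher and 68 lower, median centring 243 higher, and quantile normalization 374 and 358. With median centring 4895 higher genes with T4 and 4595 with T5 had 5 µM between the sides.

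With a bound of 0.5 against DMSO, 292 genes were above at low doses and lower at high doses, 432 below and higher, 1047 higher and above at high doses, 94 crossed downward and 1 upward. With median centring 64 were above at low doses and lower at high doses, 859 lower and below at high doses, and 1610 higher and above. A pseudocount of 0.1 gave 67, 189 and 155 genes for above then lower, below then higher, and higher and above, and 2 crossed downward.

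CPSF6 changed sign with median centring (0.114), and CSTF3 with median centring (0.299) and quantile normalization (0.107). CPSF3 did so with 5 µM on the high side (-0.032) and without T4 at 2 µM (-0.029) or T5 at 2 µM (-0.025). RUNX2 did so with median centring (0.215), quantile normalization (0.194) and without T5 at 0.5 µM (0.018). With 5 µM on the low side RUNX2 was at 0. CLDN4 changed sign with median centring (0.113) and quantile normalization (0.041). Of these, CPSF6 was called in the main comparison. Over leave-one-out fits CPSF3 ranged from -0.029 to 0.144 and RUNX2 from -0.302 to 0.018. The causes were not tested. Of 175 genes named for high against low doses 168 were called. Of these, 136 could be tested under all 17 alternatives, and 118 kept direction and call, and of the 32 that the filter at a mean FPKM of 5 removed, 29 kept both under the others. The compound was the only block, and libraries could not be paired by replicate because the labels carry no replicate numbers.

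Each dose had 1 library, so spread between cultures was not measured, and depth is known only relative to DMSO.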
